A study of Mus musculus with 60 samples.

Results

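The ventral midbrain was compared with the ventral hindbrain of mouse embryos at E13.5 (embryonic age in days) by bulk RNA sequencing. The libraries were chosen by their labels for tissue and stage, with no measured value used: 3 from the ventral midbrain and 3 from the ventral hindbrain, 6 of the 60 libraries of a study that covers 5 brain regions at 4 stages with 3 libraries in each. Embryos of both groups carried the TH-GFP transgene, a fluorescent reporter named for tyrosine hydroxylase that was watched during dissection, and no treatment is given. Per the labels, the ventral midbrain pieces took in the floor plate and the basal plate, while no boundary is given for the ventral hindbrain pieces. The labels name neither the strain background nor the number of embryos behind a library. The p-values thus measure the spread between these samples, which may be technical in part. Sex-linked genes, given below, set 1 library of each region apart from the others. All 15 libraries of E13.5 carry the same prefix in their descriptions, so the comparison lies within 1 such set. The midbrain libraries and the hindbrain libraries are both numbered 4, 5 and 6, and values are given in that order.

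The ventral midbrain and the ventral hindbrain are neighbouring stretches of the embryonic brain stem that meet at the isthmus, a signalling centre that secretes Wnt and Fgf proteins. Otx genes mark the tissue in front of this boundary, and Hox genes, read with Meis and Pbx cofactors, mark segments behind it. The midbrain floor plate is unusual among floor plates because its cells become neurons, the dopaminergic neurons lost in Parkinson disease. The hindbrain gives rise to serotonergic and noradrenergic neurons, cranial motor neurons and several classes of interneurons.

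The promoters of Hoxa2, Hoxa3 and Th are printed because Hoxa2 and Th are among the called genes of largest difference below, and Hoxa3 is a Hox gene nearly absent from 1 hindbrain library. Each sequence is the 250 bases before the RefSeq transcription start on GRCm38.p6, 5′ to 3′ on the strand of the gene, and the capitals mark letter matches to a motif. For the Hox genes the motifs were a Hox-Pbx pair, TGATNNAT, and a Meis motif, TGACAG. For Th the motif was the cAMP response element, TGACGTCA. Both strands were searched and no matches overlapped.
Hoxa2, chr6:52164832-52165081, minus strand: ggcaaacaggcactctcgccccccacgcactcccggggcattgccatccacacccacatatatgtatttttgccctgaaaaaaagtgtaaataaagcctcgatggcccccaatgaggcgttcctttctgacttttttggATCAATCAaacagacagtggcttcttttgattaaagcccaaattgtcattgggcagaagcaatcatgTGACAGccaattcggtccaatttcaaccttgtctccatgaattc
Hoxa3, chr6:52213068-52213317, minus strand: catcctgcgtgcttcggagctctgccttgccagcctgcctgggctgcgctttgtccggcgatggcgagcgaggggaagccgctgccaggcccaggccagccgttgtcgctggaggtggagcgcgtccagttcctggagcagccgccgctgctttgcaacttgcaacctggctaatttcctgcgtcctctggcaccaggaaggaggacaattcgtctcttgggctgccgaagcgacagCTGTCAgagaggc
Th, chr7:142899996-142900245, minus strand: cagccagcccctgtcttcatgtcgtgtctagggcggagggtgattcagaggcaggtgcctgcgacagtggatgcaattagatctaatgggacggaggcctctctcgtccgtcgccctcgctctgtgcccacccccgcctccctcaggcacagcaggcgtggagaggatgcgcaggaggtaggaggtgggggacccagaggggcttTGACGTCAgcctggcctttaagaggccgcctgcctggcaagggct
The Hoxa2 window held 1 Hox-Pbx match and 1 Meis match, the Hoxa3 window 1 Meis match, and the Th window 1 cAMP response element. Among 32851 RefSeq windows of the same length, 7.68% held the Hox-Pbx letters, 15.9% the Meis letters and 1.55% the cAMP response element. A match is a run of letters and not a measured binding site. The table held no window for Hoxb2, Hoxb3, En2, Chrna6 and Lbx1.

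Levels are RPKM, reads per kilobase of transcript, scaled to the assigned reads of the library. A difference is that of the mean log2(RPKM + 1) of the midbrain libraries minus that of the hindbrain libraries, with its standard error. The added 1 makes such differences smaller than the true fold change of genes with low values. Adjusted p-values are from limma with Benjamini-Hochberg adjustment over all tested genes, in a fit of all 15 libraries of E13.5. A gene was tested when its mean reached 1 RPKM in either region, and called higher or lower when its adjusted p was below 0.05 and its difference was at least 1. In bulk tissue, fewer cells of a type and less RNA per cell cannot be told apart.

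Ventral midbrain libraries held about 4973180 to 14078900 assigned reads and ventral hindbrain libraries 10691700 to 21657600, and a count of 0 in a library allows up to 0.139 to 0.603 RPM (reads scaled to library size), by counting error only. Each of the 15 libraries of E13.5 correlated best with its own group. Among the 3 genes chosen to check the labels, Otx2, a transcription factor of the forebrain and midbrain, stood at 33.1, 31.8 and 41.5 RPKM in the ventral midbrain, against 1.42, 3.46 and 1.69 RPKM in the ventral hindbrain. Hoxa2, the Hox gene with the most anterior limit in the hindbrain, was at 0 RPKM in the 3 midbrain libraries, against 22.04, 4.66 and 24.1 RPKM in the ventral hindbrain. These genes fit the labels in each library. Fev, a transcription factor of serotonergic neurons, did not mark the hindbrain: it stood at 14.1, 14.0 and 21.7 RPKM in the ventral midbrain, against 4.74, 9.17 and 7.46 RPKM in the ventral hindbrain.

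A library in each region stood apart from its replicates. Ventral hindbrain replicate 5 was low in Hox genes and high in some genes of the isthmus and midbrain (En1, En2 and Otx1), while others on that list were low in it (Pax2 and Pax8). Hoxd3 was at 34.1, 0 and 25.2 RPKM in the ventral hindbrain, and En2 at 1.29, 19.8 and 1.67 RPKM. Ventral midbrain replicate 4, the shallowest library, was high in genes of the meninges and the forebrain. The collagen gene Col1a1 was at 53.1, 0.237 and 0.163 RPKM in the ventral midbrain, and the cortical homeobox gene Emx1 at 8.06, 0.614 and 0.0770 RPKM. These genes were chosen after their values were seen. Among genes reaching 5 RPKM and counting those with a gap of at least 2 on the log2(RPKM + 1) scale to the mean of the other libraries of the group, midbrain replicates 4, 5 and 6 had 41, 10 and 15 such genes, and hindbrain replicates 4, 5 and 6 had 4, 20 and 5. Replicate 5 was also high in Xist and at or near 0 for the Y-linked gene Eif2s3y in each of the 5 regions, while replicates 4 and 6 were the reverse. Xist was at 0.1004, 68.6 and 0.0544 RPKM in the ventral midbrain and at 0.0487, 64.9 and 0.0415 RPKM in the ventral hindbrain. The hindbrain library with few Hox reads is thus also the one with Xist, and the part of either in the results below was not tested.

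Of 13503 genes tested, 262 (1.94%) were called. In the ventral midbrain 159 (1.18%) were higher and 103 (0.763%) were lower, and the median difference of all tested genes was 0.0065. In 261 of the 262, the 3 libraries of 1 region lay beyond the 3 of the other, as they did in 3594 of all 13503 tested genes. With both libraries that stood apart left out, 299 genes were called, 162 higher and 137 lower. The 12 called genes with the largest difference upward among those reaching 5 RPKM were Dmrta2, Pitx3, Th, Lmx1a, Ddc, Emx2, En2, Shisa3, Otx2, Chrna6, Foxa2 and Slc6a3. Downward they were Meis2, Crabp1, Lbx1, Hoxa2, Cyp26b1, Lamp5, Hoxb2, Mab21l2, Hoxb3, Pax2, C1ql3 and Npy. The upward set is made up largely of floor plate and dopaminergic genes, and the downward set holds Hox genes, a Meis gene and genes that handle retinoic acid. The call of Mab21l2 was lost when any library but hindbrain replicate 5 was left out (adjusted p up to 0.129).

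**Figure D1:**
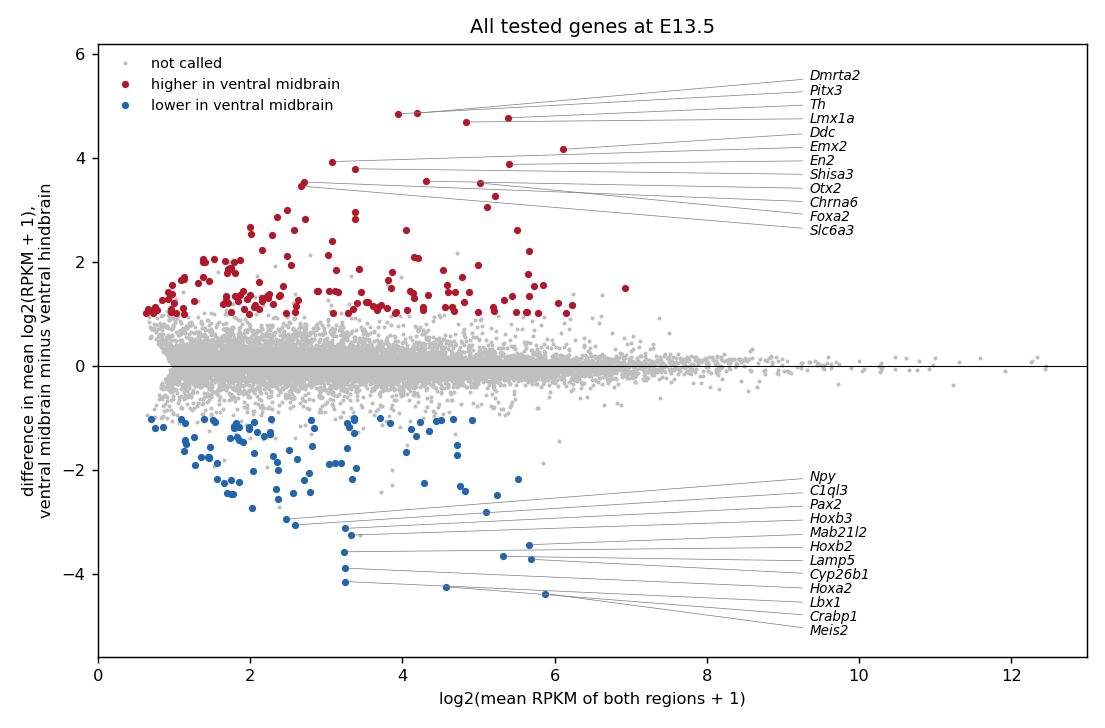
Difference in mean log2(RPKM + 1), ventral midbrain minus ventral hindbrain, against the log2 mean level of both regions plus 1, for the 13503 tested genes at E13.5. Each point is a gene, red points are the 159 called higher, blue points the 103 called lower, and the 12 largest of each are named. Differences run up to 4.87 for Dmrta2 and down to -4.38 for Meis2 among the named genes.

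Genes that set position along the brain axis separated the regions. Of 18 tested genes of the midbrain and isthmus, 9 were higher in the ventral midbrain and 1 was lower, with a median difference of 1.54, where 1.18% of all tested genes were higher and 0.763% lower. The count of lower genes was 3 without hindbrain replicate 5 and 2 without midbrain replicate 5. The shares of all tested genes given here are also the background of each list count below, the Hox list aside. For Otx2 the difference was 3.56 ± 0.31 (adjusted p = 1.11e-05). En1, a homeobox gene needed to form the midbrain and to keep its dopaminergic neurons alive, was at 64.6, 67.0 and 97.6 RPKM in the ventral midbrain, against 8.003, 19.8 and 9.16 RPKM in the ventral hindbrain (difference 2.62 ± 0.33, adjusted p = 0.000283). Its paralog En2 stood at 61.0, 65.3 and 98.4 RPKM in the ventral midbrain, against 1.29, 19.8 and 1.67 RPKM in the ventral hindbrain (3.88 ± 0.65, adjusted p = 0.00217). The regions did not overlap for either engrailed gene, and hindbrain replicate 5 was the highest of its group for both. Pax5, a partner of the engrailed genes at the isthmus, was at 9.84, 14.6 and 14.7 RPKM in the ventral midbrain, against 2.79, 1.97 and 0.572 RPKM in the ventral hindbrain. Among secreted signals of the isthmus, Wnt1 and Fgf8 were low in level but separated the regions. Wnt1 was at 2.44, 2.36 and 4.995 RPKM in the ventral midbrain, against 0.0187, 0.0580 and 0 RPKM in the ventral hindbrain. Fgf8 was at 2.41, 1.80 and 2.49 RPKM in the ventral midbrain, against 0, 0 and 0.0659 RPKM in the ventral hindbrain. Both were called higher (adjusted p = 0.000354 for Wnt1 and 0.000205 for Fgf8). Fgf17 (0.70, adjusted p = 0.333) and Fgf18 (0.06, adjusted p = 0.878), named to complete the Fgf genes of this list, were not called.

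Pax2, which in the embryo marks the isthmus early and inhibitory interneurons later, was the position gene called lower, at 0.772, 0.522 and 0.752 RPKM in the ventral midbrain, against 24.9, 5.22 and 18.6 RPKM in the ventral hindbrain (-3.13 ± 0.36, adjusted p = 0.000115). Otx1 did not pass the test (1.18 ± 0.37, adjusted p = 0.0792). It stood at 9.49, 9.86 and 11.1 RPKM in the ventral midbrain, against 1.89, 8.79 and 3.17 RPKM in the ventral hindbrain, so the one hindbrain library near the midbrain level was again replicate 5. With the replicate number as a block, Otx1 was called at the same difference (adjusted p = 0.0353), and without hindbrain replicate 5 its difference was 1.68 (adjusted p = 0.00353). Pax8, a relative of Pax2, was at 1.58, 4.31 and 3.67 RPKM in the ventral midbrain, against 15.3, 0.698 and 13.49 RPKM in the ventral hindbrain. It was called lower when hindbrain replicate 5 was left out (-1.94, adjusted p = 0.000233), and not otherwise (-0.88 ± 0.61, adjusted p = 0.455).

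Of 23 anterior Hox genes, 5 reached the level needed for a test, and 4 of these were lower in the ventral midbrain. The rest had means below 1 RPKM in both regions. All 5 tested genes passed the filter only through the hindbrain, with midbrain means of 0.0388 RPKM at most. The direction was thus fixed by the filter, and the shares of all tested genes are no background for this count. Hoxb2, which acts in the same hindbrain segments as Hoxa2, was at 0.116, 0 and 0 RPKM in the ventral midbrain, against 23.2, 1.99 and 25.3 RPKM in the ventral hindbrain (-3.58 ± 0.58, adjusted p = 0.00176). The paralog group 3 genes, whose expression begins further back, varied most within the hindbrain. Hoxa3 was at 0, 0.0269 and 0 RPKM in the ventral midbrain, against 12.9, 0.163 and 11.8 RPKM in the ventral hindbrain (-2.55 ± 0.65, adjusted p = 0.0314). Hoxb3 was at 0.0526, 0 and 0 RPKM in the ventral midbrain, against 31.8, 0.225 and 21.9 RPKM in the ventral hindbrain (-3.26 ± 0.83, adjusted p = 0.0327). Hoxd3 missed the threshold (adjusted p = 0.0521), with levels of 0, 0.0237 and 0.0326 RPKM in the ventral midbrain. Hindbrain replicate 5 thus held Hoxa2 and some Hoxb2 but almost no group 3 transcript, while replicates 4 and 6 held all 5.

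The Hox calls differ in how much they lean on single libraries. Hoxa2 passed when any 1 of the 6 libraries was left out (adjusted p = 3.95e-05 with all). The calls of Hoxa3 and Hoxb3 were lost when any library but hindbrain replicate 5 was left out, with adjusted p up to 0.132 for Hoxa3 and 0.136 for Hoxb3, which leaves 2 Hox genes called. Both also missed the threshold in a fit of the 6 libraries alone (adjusted p = 0.134 for each). Without hindbrain replicate 5, Hoxd3 was called as well (-4.90, adjusted p = 4.29e-08). A weighted fit to the recovered reads (voom) missed the threshold for Hoxa2 (adjusted p = 0.0584), Hoxb2 (adjusted p = 0.211), Hoxa3 (adjusted p = 0.391) and Hoxb3 (adjusted p = 0.55). Overlapping transcripts are annotated at Hoxa2, Hoxa3, Hoxb2, Hoxb3 and Hoxd3, and the strand used in counting is not given, so reads of neighbouring transcripts could be shared.

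The cofactors of the Hox proteins did not move as 1 group. Of 13 tested cofactor and segment genes, 4 were lower in the ventral midbrain and none was higher. Meis2, a homeobox cofactor of Hox and Pbx proteins, had the largest difference downward of the genes reaching 5 RPKM: it stood at 7.01, 5.13 and 1.497 RPKM in the ventral midbrain, against 144, 57.8 and 130 RPKM in the ventral hindbrain (-4.38 ± 0.45, adjusted p = 4.11e-05). Meis1 was at 6.08, 6.90 and 10.4 RPKM in the ventral midbrain, against 59.3, 27.6 and 53.7 RPKM in the ventral hindbrain (-2.40 ± 0.40, adjusted p = 0.00229). For both genes the regions did not overlap, and hindbrain replicate 5 was the lowest hindbrain library. Meis3 was close in both regions, at 45.8, 51.2 and 53.9 RPKM in the ventral midbrain and 50.7, 53.4 and 59.7 RPKM in the ventral hindbrain. Epha4, a guidance receptor of hindbrain segments, was lower in the ventral midbrain (-1.09 ± 0.16, adjusted p = 0.000848), as was Gbx1, at 0 RPKM in the 3 midbrain libraries.

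**Figure D2:**
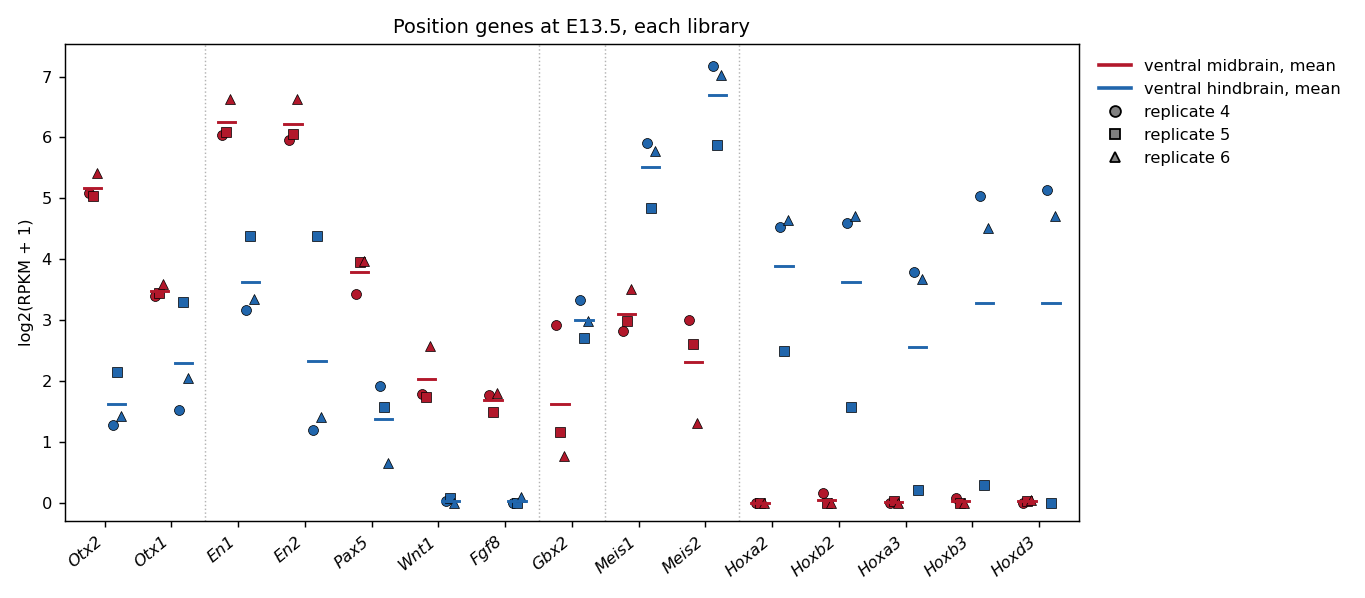
Levels of position genes at E13.5 as log2(RPKM + 1), with a red mark for each ventral midbrain library, a blue mark for each ventral hindbrain library, marker shape for the replicate number and a bar for the mean of 3. Hindbrain replicate 5 (blue squares) is the lowest hindbrain library for the Hox genes, at 0 RPKM for Hoxd3 against 34.1 and 25.2 RPKM in replicates 4 and 6, and the highest for En1, En2, Otx1 and Otx2.

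The floor plate list had the highest median of the lists examined. It shares the called genes Otx2, Wnt1 and Lmx1b with the position list. Since the lists were chosen with earlier results of these data known, the rank is a description only. Of its 22 tested genes, 17 were higher in the ventral midbrain, none was lower, and all 22 differences were positive, with a median of 1.63. Lmx1a, a homeobox factor that specifies midbrain floor plate and dopaminergic fate, was at 51.6, 52.0 and 58.5 RPKM in the ventral midbrain, against 0.873, 1.71 and 0.871 RPKM in the ventral hindbrain (4.70 ± 0.23, adjusted p = 3.67e-08). The forkhead factor Foxa2, a floor plate regulator along the whole axis, was at 50.5, 57.9 and 67.3 RPKM in the ventral midbrain, against 2.70, 5.37 and 4.79 RPKM in the ventral hindbrain (3.52 ± 0.29, adjusted p = 6.20e-06). Its relative Foxa1 differed by 3.06 ± 0.26 (adjusted p = 8.57e-06). The midbrain libraries of these 3 genes agreed closely and lay far above those of the hindbrain. Msx1, which acts below Lmx1a, was at 8.42, 7.55 and 10.9 RPKM in the ventral midbrain, against 0.341, 0.0706 and 0.276 RPKM in the ventral hindbrain (3.01 ± 0.29, adjusted p = 2.85e-05). Shh, the ventralizing signal that floor plate cells secrete, was at 31.0, 33.0 and 40.3 RPKM in the ventral midbrain, against 9.26, 13.6 and 10.8 RPKM in the ventral hindbrain (1.56 ± 0.23, adjusted p = 0.000927).

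Of the 22 floor plate genes, 5 were not called. Spon1, an adhesion protein secreted by floor plate, was at 109, 165 and 190 RPKM in the ventral midbrain, and 114, 147 and 152 RPKM in the ventral hindbrain, with overlapping ranges. Ntn1, the axon attractant netrin, stood at 177, 209 and 260 RPKM in the ventral midbrain, against 90.2, 133 and 118 RPKM in the ventral hindbrain (0.92 ± 0.25, adjusted p = 0.0436), under the size threshold, and was called without hindbrain replicate 5 (1.04). Sulf1 had a difference of 0.63 ± 0.25 (adjusted p = 0.164). The hindbrain pieces thus held floor plate transcripts too. With both libraries that stood apart left out, 16 of the floor plate genes were called higher.

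Dopaminergic neuron genes were the second block of higher genes. Of 30 tested, 21 were higher in the ventral midbrain and none was lower, where 1.18% of all tested genes were higher and 0.763% lower. The median difference was 1.44. This list shares 6 of its called genes with the position and floor plate lists: En1, En2, Foxa1, Foxa2, Lmx1a and Lmx1b. Th, the rate-limiting enzyme of dopamine synthesis, was at 77.5, 64.1 and 98.1 RPKM in the ventral midbrain, against 1.42, 2.55 and 1.86 RPKM in the ventral hindbrain (4.78 ± 0.44, adjusted p = 1.83e-05). Ddc, which turns L-DOPA into dopamine, was at 118, 118 and 154 RPKM in the ventral midbrain, against 4.09, 9.43 and 6.07 RPKM in the ventral hindbrain (4.17 ± 0.27, adjusted p = 8.02e-07). Gch1, which makes the cofactor of Th, differed by 2.13 ± 0.13 (adjusted p = 3.54e-07), and the vesicular monoamine transporter Slc18a2 by 1.72 ± 0.22 (adjusted p = 0.000295). The genes for making and packing dopamine were higher together, but the hindbrain held more Slc18a2, at 8.67, 15.3 and 11.7 RPKM, than Th.

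The genes most restricted to dopaminergic neurons were close to absent from the hindbrain libraries. Pitx3, a homeobox factor needed for the survival of substantia nigra neurons, was at 24.6, 23.0 and 38.4 RPKM in the ventral midbrain and at 0 in the 3 hindbrain libraries (adjusted p = 9.01e-09). Slc6a3, the dopamine transporter, was at 11.4, 8.65 and 12.04 RPKM in the ventral midbrain, against 0.0390, 0.0403 and 0.0789 RPKM in the ventral hindbrain (3.46 ± 0.12, adjusted p = 9.97e-10). Chrna6, a nicotinic receptor subunit of dopaminergic neurons, was at 11.0, 8.10 and 14.1 RPKM in the ventral midbrain, against 0.0154, 0.0238 and 0 RPKM in the ventral hindbrain (3.54 ± 0.15, adjusted p = 7.04e-09). The nuclear receptor Nr4a2, which acts in dopaminergic neurons and in other neurons, behaved differently. It reached 92.9, 75.6 and 79.2 RPKM in the ventral midbrain, yet the hindbrain libraries also held 17.8, 18.1 and 15.2 RPKM (2.21 ± 0.33, adjusted p = 0.000886).

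Dopaminergic genes that did not pass included Gfra1, a receptor for GDNF, at 55.6, 58.1 and 73.3 RPKM in the ventral midbrain, against 30.6, 37.3 and 28.3 RPKM in the ventral hindbrain (0.94 ± 0.18, adjusted p = 0.00527, under the size threshold). It was called without hindbrain replicate 5 (1.05) and, at an adjusted p of 0.011, without midbrain replicate 4. Sncg, a synuclein also made by motor and sensory neurons, pointed the other way. It was at 16.0, 21.8 and 28.5 RPKM in the ventral midbrain, against 111, 38.6 and 125 RPKM in the ventral hindbrain (-1.87 ± 0.55, adjusted p = 0.0613). Sncg was thus lowest among hindbrain libraries in replicate 5, and the regions did not overlap. It was called without that library (-2.40, adjusted p = 0.0184) and in a fit of the 6 libraries alone (adjusted p = 0.042). Qdpr, which recycles the cofactor of Th, had a difference of 0.04 ± 0.08.

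Serotonergic genes were present in both regions. Of 16 tested, 6 were higher in the ventral midbrain and none was lower, with a median of 0.53. Of these 6, Ddc, Gch1, Slc18a2, Foxa2 and Lmx1b are also on the dopaminergic list. Fev was the sixth, with a difference of 1.13 ± 0.19 (adjusted p = 0.00258), which falls to 0.90 without hindbrain replicate 4 and to 0.93 without midbrain replicate 6, under the size threshold, and with a pseudocount of 0.1 its adjusted p was 0.0964. Tph2, which makes serotonin in neurons, was at 9.15, 10.6 and 15.2 RPKM in the ventral midbrain, and 5.32, 13.7 and 6.76 RPKM in the ventral hindbrain (0.47 ± 0.27, adjusted p = 0.366). The serotonin transporter Slc6a4 was at 17.5, 19.9 and 30.5 RPKM in the ventral midbrain, and 11.1, 18.5 and 15.2 RPKM in the ventral hindbrain (0.56 ± 0.19, adjusted p = 0.0974). The ranges of the regions overlapped for both. For Fev, Tph2 and Slc6a4, hindbrain replicate 5 was the highest hindbrain library. In the ventral forebrain, dorsal midbrain and alar plate of the same stage, Fev averaged 0.0206, 0.0193 and 0.0751 RPKM. Tph2 averaged 0.123, 0.111 and 0.214 RPKM there, and Slc6a4 0.109, 0.127 and 0.139 RPKM.

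The noradrenergic list moved in both directions. Of 10 tested, 3 were higher in the ventral midbrain (Th, Gch1 and Slc18a2, shared with dopaminergic neurons) and 5 were lower. The noradrenaline transporter Slc6a2 was at 0.0326, 0.150 and 0.270 RPKM in the ventral midbrain, against 2.80, 4.05 and 2.02 RPKM in the ventral hindbrain (-1.75 ± 0.16, adjusted p = 1.57e-05). Tlx3, a homeobox factor of noradrenergic and sensory relay neurons, was at 0, 0.131 and 0.0600 RPKM in the ventral midbrain, against 3.82, 3.51 and 4.18 RPKM in the ventral hindbrain (-2.19 ± 0.25, adjusted p = 0.000105). Hindbrain replicate 5 held the most Slc6a2 of its group and a level of Tlx3 near that of its replicates, unlike its Hox genes.

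Genes of cranial motor neurons were lower in part, and unevenly across the hindbrain libraries. Of 15 tested, 3 were lower in the ventral midbrain and none was higher. Tbx20, a T-box factor of branchial and visceral motor neurons, was at 0.748, 0.660 and 0.911 RPKM in the ventral midbrain, against 8.37, 1.64 and 6.46 RPKM in the ventral hindbrain (-1.69 ± 0.32, adjusted p = 0.00568). It kept the order seen for the Hox genes, with replicate 5 the lowest of the hindbrain libraries and still above the midbrain. Tbx20 missed the threshold in a fit of the 6 libraries alone (adjusted p = 0.0592) and with voom (adjusted p = 0.0551).

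Other motor neuron genes did not pass with all libraries. Prph, an intermediate filament of motor and sensory axons, was at 1.43, 1.52 and 2.59 RPKM in the ventral midbrain, against 35.3, 2.04 and 30.2 RPKM in the ventral hindbrain (-2.43 ± 0.71, adjusted p = 0.06), and was called without hindbrain replicate 5 (-3.59, adjusted p = 6.88e-05). Isl1, a factor shared by motor neurons of both regions, was at 7.20, 8.14 and 13.47 RPKM in the ventral midbrain, and 14.3, 3.27 and 19.3 RPKM in the ventral hindbrain, with overlapping ranges (-0.10 ± 0.74, adjusted p = 0.957). With both libraries that stood apart left out, 6 motor neuron genes were called lower and 1 higher, and without hindbrain replicate 5 alone 7 were called lower.

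The interneuron list of the hindbrain and spinal cord held the most lower calls: 11 of 28 tested were lower in the ventral midbrain and 4 were higher, with a median of -1.04. Lbx1, a homeobox factor of dorsal relay and inhibitory interneurons, was at 0 in the 3 midbrain libraries, against 17.6, 13.45 and 19.9 RPKM in the ventral hindbrain (adjusted p = 4.66e-10). Evx1, a factor of commissural excitatory interneurons, was at 0, 0.0239 and 0.0329 RPKM in the ventral midbrain, against 4.61, 3.87 and 5.62 RPKM in the ventral hindbrain (-2.47 ± 0.26, adjusted p = 6.01e-05). Foxd3 was at 0.163, 0.115 and 0.277 RPKM in the ventral midbrain, against 4.5, 5.97 and 3.14 RPKM in the ventral hindbrain (-2.19 ± 0.15, adjusted p = 1.67e-06). Hindbrain replicate 5 held these 3 genes near the level of its replicates, but held less of other genes of the list than replicates 4 and 6 did, among them Pax2 and Pax8, as given above, and Tlx1. Tlx1 was at 0 in the midbrain libraries, against 6.96, 2.79 and 8.69 RPKM in the ventral hindbrain (adjusted p = 1.65e-05). Lhx1, an interneuron factor of both regions, had a difference of -0.07 ± 0.19. The 4 higher calls are Foxp2, Lmx1b, Barhl1 and En1; Foxp2 is named to complete that count (1.31, adjusted p = 0.0058).

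**Figure D3:**
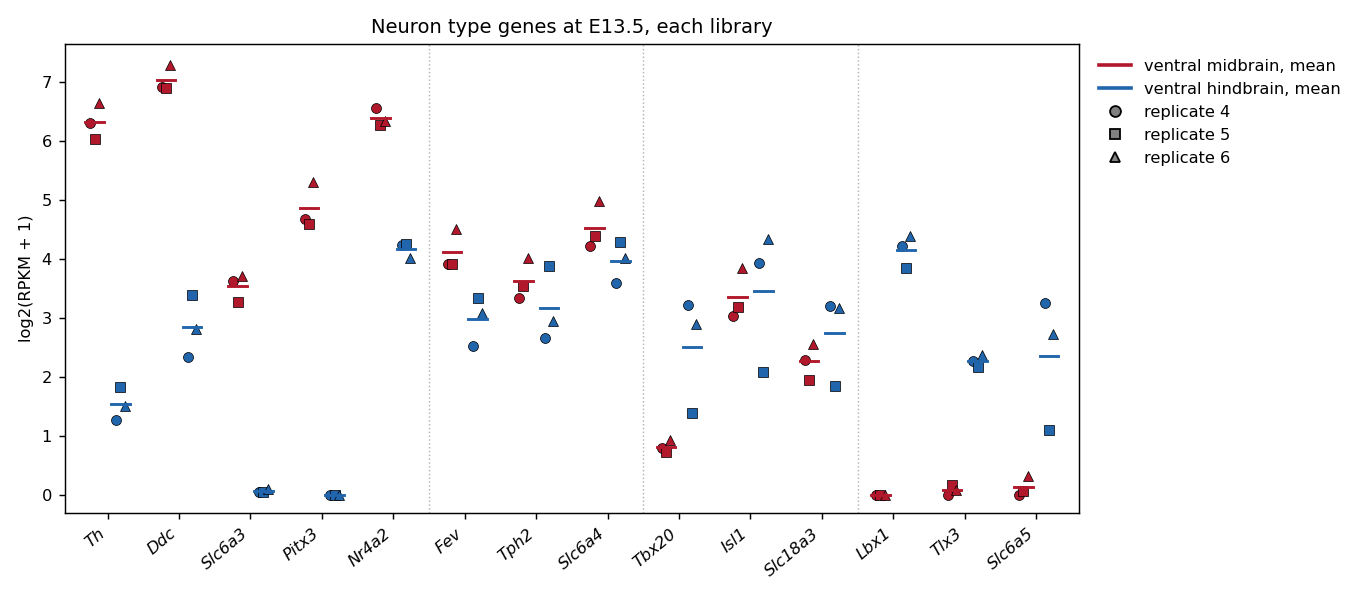
Levels at E13.5 as log2(RPKM + 1) of genes of dopaminergic (Th to Nr4a2), serotonergic (Fev to Slc6a4), motor (Tbx20 to Slc18a3) and hindbrain interneurons (Lbx1 to Slc6a5), with red marks for ventral midbrain libraries, blue marks for ventral hindbrain libraries, marker shape for the replicate and bars for the mean of 3. Dopaminergic genes do not overlap between regions, Tph2 and Slc6a4 do, and hindbrain replicate 5 (blue squares) is the lowest hindbrain library for each motor gene.

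The glycine transporter Slc6a5, which marks glycinergic neurons, was at 0, 0.0536 and 0.259 RPKM in the ventral midbrain, against 8.57, 1.16 and 5.61 RPKM in the ventral hindbrain (-2.23 ± 0.37, adjusted p = 0.00209). It was the only 1 of 7 glycinergic genes called, and voom missed the threshold (adjusted p = 0.0812). Slc32a1, the vesicular transporter of GABA and glycine, was at 11.8, 18.6 and 18.2 RPKM in the ventral midbrain, against 31.3, 33.1 and 27.1 RPKM in the ventral hindbrain, with no call (-0.89 ± 0.49, adjusted p = 0.333). The regions did not overlap for it. The vesicular glutamate transporter Slc17a6 was at 34.0, 27.8 and 20.4 RPKM in the ventral midbrain, and 26.3, 17.1 and 20.2 RPKM in the ventral hindbrain, with overlapping ranges.

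Of 24 GABAergic genes, 2 were higher in the ventral midbrain and 1 was lower. Without midbrain replicate 6, 6 were higher, and without midbrain replicate 5, 1 was. The neuropeptide gene Npy was lower, at 0, 0.551 and 0.304 RPKM in the ventral midbrain, against 7.95, 8.11 and 10.4 RPKM in the ventral hindbrain (-2.95 ± 0.23, adjusted p = 5.16e-06). Helt, which selects GABAergic fate in the midbrain, was at 1.11, 2.65 and 1.80 RPKM in the ventral midbrain, against 0.113, 0.0439 and 0.0573 RPKM in the ventral hindbrain (1.38 ± 0.29, adjusted p = 0.0113, and 0.0512 without midbrain replicate 5). Pvalb was higher as well (2.03 ± 0.21, adjusted p = 4.11e-05).

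Of 16 genes of midbrain glutamatergic and red nucleus neurons, 3 were higher and none was lower. Pou4f1, a POU factor of the red nucleus, was at 12.3, 13.9 and 21.4 RPKM in the ventral midbrain, against 4.65, 2.08 and 4.18 RPKM in the ventral hindbrain (1.88 ± 0.40, adjusted p = 0.0119, and 0.0683 without midbrain replicate 6). Barhl1 was at 6.79, 7.68 and 0.775 RPKM in the ventral midbrain, against 0.231, 0.0756 and 0.296 RPKM in the ventral hindbrain (2.04 ± 0.45, adjusted p = 0.0147, and 0.069 without midbrain replicate 4 and 0.062 without midbrain replicate 5). Sim1 was at 3.48, 3.55 and 2.47 RPKM in the ventral midbrain, against 0.0372, 0.0384 and 0.0125 RPKM in the ventral hindbrain (2.01 ± 0.19, adjusted p = 2.27e-05). Only Sim1 stayed called with both libraries that stood apart left out. Midbrain replicates 4 and 5 also held the forebrain factor Six3, at 7.77, 5.58 and 0.285 RPKM in the ventral midbrain, and the summed level of the 18 forebrain genes was 97.3, 51.5 and 24.4 RPKM in the ventral midbrain, against 21.7, 19.0 and 24.7 RPKM in the ventral hindbrain. Much of the hindbrain sums is the list member Lhx2, which averaged 16.8 RPKM there, so like sums need not come from the same genes. The part of forebrain tissue in Barhl1, Sim1 and Emx2 was not tested; Emx2 was at 15.8, 13.8 and 15.03 RPKM in the ventral midbrain, level across libraries whose Six3 differed.

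Among progenitor genes, a few stood far apart and most were not called. Dmrta2, a transcription factor of midbrain dopaminergic progenitors, was at 37.0, 33.7 and 32.8 RPKM in the ventral midbrain, against 0.152, 0.188 and 0.307 RPKM in the ventral hindbrain (4.87 ± 0.29, adjusted p = 3.36e-07). Of 28 genes of the dorsoventral progenitor domains, 4 were higher (Dmrta2, Emx2, Msx1 and Nkx2-9) and none was lower. Neurog2, the proneural gene of dopaminergic progenitors, was at 50.7, 41.8 and 55.9 RPKM in the ventral midbrain, against 8.89, 15.6 and 12.6 RPKM in the ventral hindbrain (1.94 ± 0.26, adjusted p = 0.000427). Neurod2, a later neuronal factor of the same family, was lower (-2.17 ± 0.24, adjusted p = 9.07e-05). The proneural list had 2 higher and 2 lower of 26, and without hindbrain replicate 5 it had 4 higher. The Notch target Hes5 was at 36.5, 40.7 and 44.4 RPKM in the ventral midbrain, and 27.5, 46.2 and 34.7 RPKM in the ventral hindbrain, within the same range.

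Ccnd2, a D-type cyclin, was the single cell cycle gene called among 35. It was at 66.5, 62.8 and 70.7 RPKM in the ventral midbrain, against 5.65, 6.22 and 6.12 RPKM in the ventral hindbrain (3.27 ± 0.22, adjusted p = 8.02e-07). The other 34 were not called, and 32 of the 35 differences were positive, with a median of 0.43. The summed level of the cell cycle list, Ccnd2 included, was 648, 589 and 615 RPKM in the ventral midbrain, against 360.3, 546.7 and 456.4 RPKM in the ventral hindbrain. Part of the gap between these sums is that of Ccnd2. They do not show that the other 34 genes separate the regions. Of 30 general neuronal genes, 1 was lower, and 25 of the 30 differences were negative, with a median of -0.21. Tubb3, a neuronal tubulin, had a difference of -0.02 ± 0.11. Of 25 radial glia genes, Id3 was higher (1.54 ± 0.17, adjusted p = 8.93e-05) and Aldoc and Tnc were lower. Without midbrain replicate 4, 3 radial glia genes were higher, and without hindbrain replicate 5 or 6, 2 were. Tnc, a matrix protein of glial progenitors, was at 7.18, 3.65 and 5.10 RPKM in the ventral midbrain, against 45.5, 14.3 and 34.9 RPKM in the ventral hindbrain (-2.26 ± 0.43, adjusted p = 0.00559).

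Wnt signalling had the most higher calls among the signalling lists. Of 43 tested, 12 were higher in the ventral midbrain and 2 were lower, with a median of 0.50. Wnt5a, a ligand that promotes dopaminergic neuron morphogenesis in the mouse, was at 27.8, 25.9 and 32.7 RPKM in the ventral midbrain, against 5.99, 6.04 and 6.02 RPKM in the ventral hindbrain (2.08 ± 0.26, adjusted p = 0.000225). Rspo2, a secreted amplifier of Wnt signals, was at 6.196, 7.52 and 8.23 RPKM in the ventral midbrain, against 0.564, 0.333 and 0.408 RPKM in the ventral hindbrain (2.53 ± 0.26, adjusted p = 4.11e-05). Wnt8b was at 6.02, 5.29 and 6.37 RPKM in the ventral midbrain, against 0.0531, 0.0412 and 0.135 RPKM in the ventral hindbrain (2.68 ± 0.27, adjusted p = 4.21e-05). Sp5, a transcription factor induced by Wnt signals, differed by 1.67 ± 0.19 (adjusted p = 9.00e-05). Planar polarity genes were not a uniform set: Celsr1 was higher (1.15 ± 0.15, adjusted p = 0.00031), while Vangl2, Celsr2 and Celsr3 had differences of -0.03, 0.06 and -0.06. With both libraries that stood apart left out, 7 Wnt genes were called higher and 3 lower. Lef1, a Wnt effector that is on the forebrain list too, had a difference of 1.27 with all libraries and 0.9985 without midbrain replicate 4, just under the size threshold.

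Retinoic acid genes showed the largest differences of any signalling list. Of 15 tested, 3 were lower in the ventral midbrain and 2 were higher. Crabp1, which binds retinoic acid in the cytoplasm, was at 2.39, 1.27 and 0.582 RPKM in the ventral midbrain, against 53.9, 30.4 and 47.7 RPKM in the ventral hindbrain (-4.25 ± 0.62, adjusted p = 0.000854). Cyp26b1, the enzyme that breaks retinoic acid down, was at 2.03, 8.25 and 9.16 RPKM in the ventral midbrain, against 115, 44.2 and 124 RPKM in the ventral hindbrain (-3.72 ± 0.60, adjusted p = 0.00169). Crabp2, the second binding protein, was lower too (-1.72 ± 0.36, adjusted p = 0.011, and 0.0511 without midbrain replicate 6). Aldh1a1, which makes retinoic acid in dopaminergic neurons, was on the other side, at 2.36, 1.299 and 1.42 RPKM in the ventral midbrain, against 0.130, 0.134 and 0 RPKM in the ventral hindbrain (1.29 ± 0.14, adjusted p = 6.33e-05).

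BMP and TGF-beta genes split. Of 22 tested, 4 were higher and 2 were lower. With both libraries that stood apart left out, 2 were called higher and 2 lower. The ligand Bmp7 was at 12.7, 5.35 and 6.81 RPKM in the ventral midbrain, against 1.58, 0.836 and 1.54 RPKM in the ventral hindbrain (1.94 ± 0.28, adjusted p = 0.000722). The Id genes, inhibitors of bHLH factors that BMP signals induce, did not move together: Id3 was at 78.3, 70.4 and 85.2 RPKM in the ventral midbrain, against 25.6, 21.5 and 32.0 RPKM in the ventral hindbrain. Id2 was at 12.6, 12.99 and 11.4 RPKM in the ventral midbrain, against 43.1, 27.3 and 44.0 RPKM in the ventral hindbrain (-1.53 ± 0.18, adjusted p = 0.000157), and Id1 was lower as well (-1.34 ± 0.23, adjusted p = 0.00265). In the hedgehog list of 13 genes, Shh was the single call, while its receptor Ptch1, itself induced by hedgehog signals, was at 17.6, 18.6 and 19.8 RPKM in the ventral midbrain, and 25.2, 21.7 and 19.7 RPKM in the ventral hindbrain (-0.23 ± 0.17). Of 18 FGF genes, Fgf8 and the carrier protein gene Fgfbp3 (1.21 ± 0.15, adjusted p = 0.000205) were higher. The receptor Fgfr3 was lower (-1.05 ± 0.22, adjusted p = 0.0107), a call lost without midbrain replicate 6 (-0.83, adjusted p = 0.0579) and without hindbrain replicate 6 (-0.94, adjusted p = 0.0551).

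Each axon guidance list had 1 call, where 1.94% of all tested genes were called. Slit2, a repellent secreted by the ventral midline, was at 67.9, 70.7 and 91.4 RPKM in the ventral midbrain, against 18.4, 28.5 and 18.7 RPKM in the ventral hindbrain (1.78 ± 0.26, adjusted p = 0.000871), the 1 call among 19 netrin and slit genes. Its relative Slit1 was at 50.1, 58.7 and 69.8 RPKM in the ventral midbrain, and 49.5, 52.0 and 50.6 RPKM in the ventral hindbrain (0.21 ± 0.15). Sema3a was the 1 call among 29 semaphorin, plexin and neuropilin genes, at 1.12, 0.904 and 1.56 RPKM in the ventral midbrain, against 9.01, 5.15 and 6.95 RPKM in the ventral hindbrain (-1.86 ± 0.24, adjusted p = 0.000341). Among 20 ephrin and Eph genes Epha4 was the 1 call, although Ephb1 (-0.84 ± 0.14, adjusted p = 0.00209) and Ephb2 (0.53 ± 0.11, adjusted p = 0.0115) had small adjusted p-values below the size threshold, in opposite directions.

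**Figure D4:**
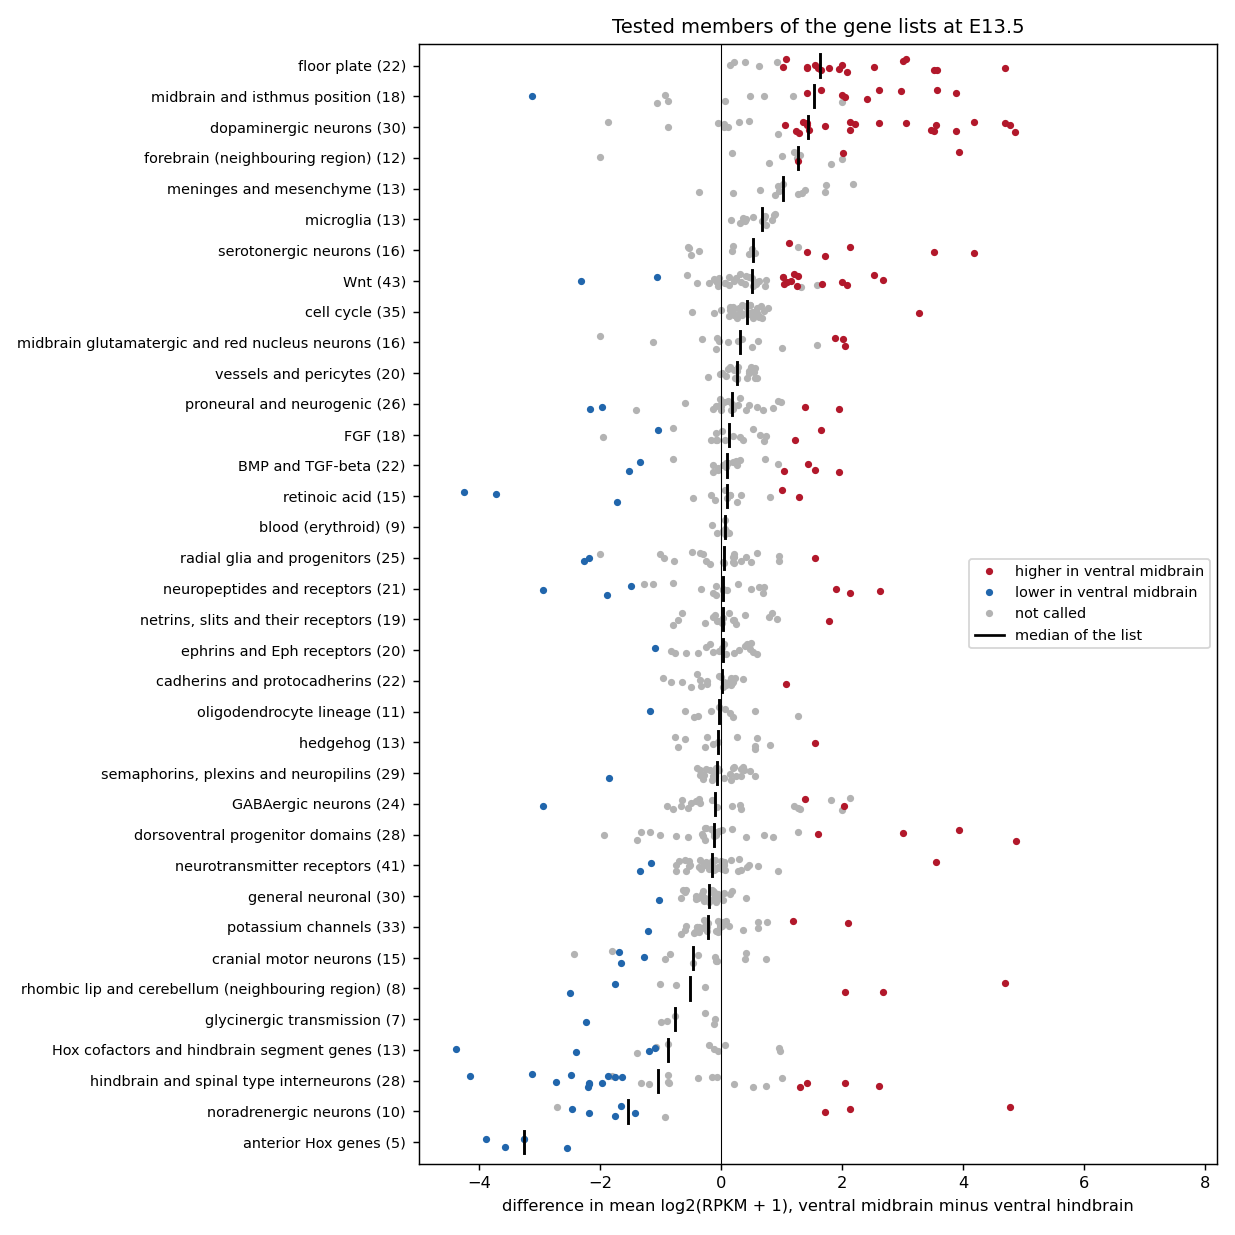
Differences in mean log2(RPKM + 1), ventral midbrain minus ventral hindbrain, for the tested members of each gene list at E13.5, with the number tested in brackets. Each point is a gene, red if called higher, blue if called lower and grey if not called, and the black bar is the median of the list. Lists run from the floor plate at the top (median 1.63) to the anterior Hox genes at the bottom (median -3.26), and a gene on more than 1 list is drawn in each. The tested Hox genes passed the level filter through the hindbrain alone, so the sign of their median was set by the filter.

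Markers of microglia, vessels, blood and meninges gave no calls, but lists of neighbouring brain regions did. None of 13 microglial, 20 vessel, 9 erythroid or 13 meningeal genes tested was called, but the microglial and meningeal medians, 0.67 and 1.02, were above that of all genes. Of 12 forebrain genes tested, 3 were higher in the ventral midbrain (median 1.26), and 2 to 8 when 1 library was left out. Of 8 genes of the rhombic lip and cerebellum, 3 were higher and 2 were lower. The largest of these differences, 4.70, is that of Lmx1a, which is also on the floor plate and dopaminergic lists. Whether these calls come from neighbouring tissue was not tested. The summed level of the 14 microglial genes was 89.6, 35.2 and 40.5 RPKM in the ventral midbrain, against 29.59, 22.03 and 34.13 RPKM in the ventral hindbrain, so midbrain replicate 4 held the most. That of 20 vessel genes was 290, 194 and 208 RPKM in the ventral midbrain, against 186, 175 and 182 RPKM in the ventral hindbrain. Meningeal Col3a1 was at 144, 1.72 and 1.85 RPKM in the ventral midbrain, against 1.74, 1.21 and 0.991 RPKM in the ventral hindbrain. Lhx2, a forebrain and interneuron factor, was at 29.2, 1.37 and 0.205 RPKM in the ventral midbrain, against 16.6, 14.53 and 19.4 RPKM in the ventral hindbrain. It was called lower only when midbrain replicate 4 was left out (-3.39, adjusted p = 0.0169) or both libraries that stood apart were (-3.49, adjusted p = 0.0307).

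The same comparison at E12.5, in other libraries with another description prefix, called 314 of 13304 genes (2.36%), 185 higher and 129 lower in the ventral midbrain. Of the higher genes, 109 were called at both stages, 68.6% of the E13.5 calls and 58.9% of the E12.5 calls. Of the lower genes, 36 were shared, 35.0% of the E13.5 calls and 27.9% of the E12.5 calls. Among the E13.5 calls, 158 higher and 88 lower genes were tested at E12.5, and 156 and 85 of these had the same sign there. In each direction, 1 was called the opposite way at E12.5. The share of all tested genes with the same sign at both stages is not given here. At E12.5, Th was at 80.6, 85.0 and 71.6 RPKM in ventral midbrain replicates 1, 2 and 3, against 1.43, 2.34 and 1.72 RPKM in the ventral hindbrain (4.83, adjusted p = 2.18e-07). Hoxa2 at E12.5 was at 0, 0.0474 and 0 RPKM in the ventral midbrain, against 0.105, 11.0 and 6.43 RPKM in the ventral hindbrain, and was not called (adjusted p = 0.057). Hoxb3 and Hoxd3 were below the level for a test there: Hoxd3 was at 0 in the midbrain libraries and at 0, 0.0296 and 0.0281 RPKM in the ventral hindbrain. Hindbrain replicate 1 of E12.5 was low in Hoxa2 and held En1 at 41.2 RPKM against 8.91 and 4.73 RPKM in its replicates, so the hindbrain libraries also vary in position genes at that stage.

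A test of the change in the difference between E12.5 and E13.5 called 12 of 13651 genes (0.0879%), 6 in each direction. Stage and description prefix cannot be told apart in the levels, but each difference was taken within 1 prefix. Tbx20, lower in the ventral midbrain at E13.5, changed by -2.41 ± 0.38 (adjusted p = 0.00575, and called when any 1 of the 12 libraries was left out), with 1.27, 1.23 and 1.09 RPKM in the ventral midbrain at E12.5, against 0.0988, 0.915 and 0.109 RPKM in the ventral hindbrain. The cholinergic transporters changed in the same direction. Slc5a7, the choline transporter, was higher in the ventral midbrain at E12.5, at 6.57, 5.33 and 4.89 RPKM against 0.542, 0.639 and 0.255 RPKM in the ventral hindbrain. At E13.5 it was at 3.43, 3.15 and 4.58 RPKM in the ventral midbrain, and 3.50, 1.32 and 3.38 RPKM in the ventral hindbrain, for a change of -1.77 ± 0.26 (adjusted p = 0.00335).

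These cholinergic and motor genes were on the midbrain side at E12.5 and level or on the hindbrain side at E13.5. Slc18a3, the vesicular acetylcholine transporter, changed by -2.30 ± 0.38 (adjusted p = 0.00807, and 0.0508 without hindbrain replicate 6 of E13.5). The hindbrain libraries of E13.5 with the most motor transcripts, replicates 4 and 6, are those with group 3 Hox transcripts, which the E12.5 hindbrain libraries held at 1.72 RPKM of Hoxb3 at most. The part of the Hox level of each library in this change was not tested. In the other direction, Otp, a homeobox factor of hypothalamic and hindbrain neurons, was at 7.84, 5.76 and 8.79 RPKM in the ventral midbrain at E13.5, against 56.0, 76.0 and 45.5 RPKM in the ventral hindbrain. At E12.5 it was at 0, 1.455 and 1.51 RPKM in the ventral midbrain, against 60.0, 108 and 99.4 RPKM in the ventral hindbrain. The change was 2.76 ± 0.54 (adjusted p = 0.0423), so Otp was lower in the ventral midbrain at both stages, by less at E13.5. The call passed in 2 of the 12 fits that left out a library. Cdh8, a cadherin, changed by 1.66 ± 0.32 (adjusted p = 0.0423, called in 3 of those 12 fits).

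**Figure D5:**
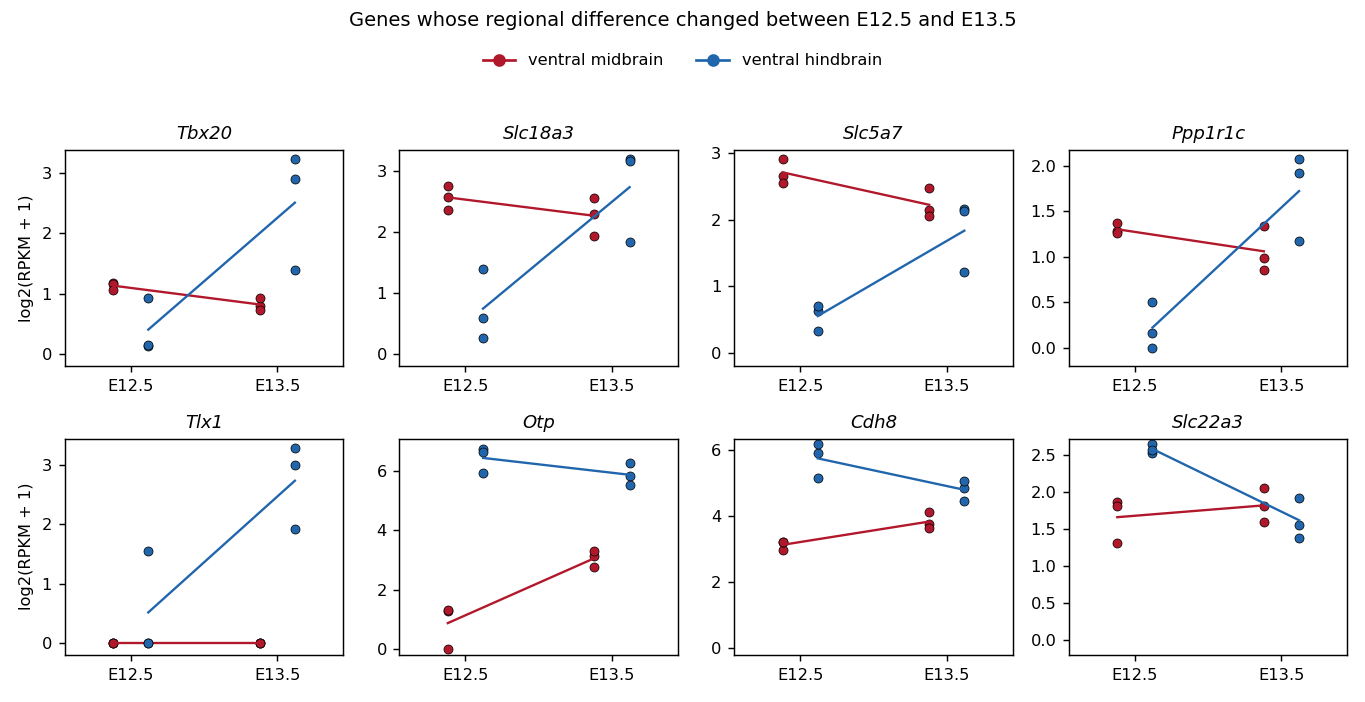
Levels as log2(RPKM + 1) at E12.5 and E13.5 of 8 of the 12 genes whose difference between the regions changed, with red points for ventral midbrain libraries, blue points for ventral hindbrain libraries (3 of each per stage) and lines joining the means. Tbx20, Slc18a3, Slc5a7 and Ppp1r1c lie on the midbrain side at E12.5, Tbx20 lies on the hindbrain side at E13.5, and the 2 lines of Otp and Cdh8 draw nearer.

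Without the 2 libraries of E13.5 that stood apart, 61 genes were called for a change, 17 upward and 44 downward, and without hindbrain replicate 5 alone 64. Fitted on the 12 libraries of these groups alone, 3 genes were called, and Tbx20, Slc18a3 (adjusted p = 0.193 each) and Slc5a7 (adjusted p = 0.146) missed the threshold. With voom, Tbx20 and Slc18a3 missed it too (adjusted p = 0.109 each). Within E13.5, 99 of the 208 tested genes eligible to be named were called, and 74 of them stayed called in every alternative that tested them, the stricter size threshold aside. Called genes of large difference or small adjusted p were picked for naming. Neither share thus describes all tested genes, of which 1.94% were called.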

How the data were processed

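The authors deposited RPKM values for 24378 features in 60 libraries of total RNA. Bowtie and the mm10 build are named, per the submitters' processing notes. Counter, annotation, filters and strand: not given in the sources used here. In each library, value times length summed to 1000000, and 100% of values were whole reads within 0.001 once multiplied back. The main test was limma 3.58.1 with a mean-variance trend in R 4.3.3 on log2(RPKM + 1). All 15 libraries of a stage entered its fit (30 for the change between stages). Planned tests for counts were left out by choice because the deposited unit is normalised, and voom on the recovered reads was run as an alternative. The procedure was tested on simulated data.

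The replicate numbers are in the sample titles. Deviations from the group means correlated at 0.186, 0.266 and 0.102 for pairs 4, 5 and 6, each above 0.1, so the numbers were taken as pairs and a fit with the replicate block was made. Xist levels also separate replicate 5 in each region.

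Named genes were 3 label checks, core dopaminergic and serotonergic genes, the 12 called genes of largest difference each way with a mean of at least 5 RPKM, up to 6 called members per list (12 for the Hox, dopaminergic and serotonergic lists) and 3 uncalled ones of highest level, and up to 4 changed genes each way. Some genes are not reported here. Members, lists and comparisons were chosen with earlier results of these data known. The 36 lists hold 763 distinct genes. Overlaps with other genes were read from GENCODE vM21.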

Additional observations from a re-analysis of the deposited data

Results flagged for a closer look

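The difference between ventral midbrain and ventral hindbrain changed from stage to stage for 12 genes by a test of the change itself, given here as E13.5 minus E12.5 on the log2 scale with limma's adjusted p for 11 of them. Downward, where the difference moved toward the hindbrain, were Tbx20 (-2.41, adjusted p = 0.00575), Slc18a3 (-2.30, adjusted p = 0.00807), Tlx1 (-2.22, adjusted p = 0.0221), Slc5a7 (-1.77, adjusted p = 0.00335) and Ppp1r1c (-1.74, adjusted p = 0.0221). Upward were Slc22a3 (1.12, adjusted p = 0.0221), the antisense transcript 2700069I18Rik (1.23, adjusted p = 0.000276), Cdh8 (1.66, adjusted p = 0.0423), the small nuclear RNA Rnu7 (2.28, adjusted p = 0.0423), Ikzf1 (2.42, adjusted p = 0.0199) and Otp (2.76, adjusted p = 0.0423).

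Tbx20, Slc5a7 and 2700069I18Rik passed when any 1 of the 12 libraries was left out, and Slc18a3 in 11 of 12 such fits. In a fit of the 12 libraries alone, 2700069I18Rik was the 1 gene of these 11 that passed (adjusted p = 0.014), and the other 10 had adjusted p of 0.138 to 0.263. With voom, Slc5a7 (adjusted p = 0.0139) and 2700069I18Rik (adjusted p = 0.00346) passed and the other 9 did not. Among the fits that left out 1 library, Ikzf1 passed in 7, Slc22a3 in 5, Rnu7 in 4, Tlx1, Ppp1r1c and Cdh8 in 3 and Otp in 2. Tlx1 was at 0 in the midbrain libraries of both stages, so its change is that of the hindbrain. Rnu7 overlaps Grcc10 on the same strand, and 2700069I18Rik is annotated as antisense, so their reads could belong to other transcripts. Ikzf1 was at 3.02, 5.20 and 6.37 RPKM in the ventral midbrain at E13.5, against 1.46, 2.99 and 0.924 RPKM in the ventral hindbrain. At E12.5 it was at 0.285, 1.74 and 0.551 RPKM in the ventral midbrain, against 6.99, 2.40 and 2.19 RPKM in the ventral hindbrain.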

How the results depend on the processing

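The 262 genes called at E13.5 became 172 with a filter at 5 RPKM, 840 by adjusted p alone and 74 at a difference of at least 2, which also left 52 list genes against 114 and 53 named genes against 99. Leaving out 1 library gave 211 to 316 genes, 99 to 131 list genes and 85 to 107 named genes. The other alternatives (only the 6 libraries, a pseudocount of 0.1, no filter, equal medians, TMM scaling, voom on the recovered reads and, chosen after seeing the data, both libraries that stood apart left out) gave 253 to 360. Equal medians gave 153 higher and 110 lower. With the replicate block 272 genes were called, and of the named genes it changed no call but that of Otx1; a block in the 6 libraries alone, also added later, gave 267. The 314 calls of E12.5 became 204 to 326 when a library was left out, 204 without midbrain replicate 1. The 12 changes between stages became 3 with the 12 libraries alone, 3 with a pseudocount of 0.1, 3 with voom and 61 without the libraries that stood apart. Leaving out 1 library gave 4 to 64, 64 without hindbrain replicate 5 of E13.5. No gene of those named that was called, with all libraries or under an alternative run, changed direction between them; uncalled ones could, as Isl1 did (-0.10, and 0.34 without hindbrain replicate 6). Causes were not tested. edgeR and DESeq2 were not run, a choice made because the deposited unit is normalised, although whole reads could be recovered. Midbrain replicate 4, the shallowest library, limits what can be seen of genes near the floor.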

Other observations

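Neuropeptide genes differed in both directions. Of 21 tested, 3 were higher in the ventral midbrain and 3 were lower. Cartpt was at 25.0, 35.8 and 21.9 RPKM in the ventral midbrain, against 3.27, 2.72 and 4.89 RPKM in the ventral hindbrain (2.62 ± 0.42, adjusted p = 0.00164). Cck, a peptide of some adult dopaminergic neurons, was at 7.17, 6.999 and 10.2 RPKM in the ventral midbrain, against 1.26, 0.526 and 1.57 RPKM in the ventral hindbrain (2.12 ± 0.28, adjusted p = 0.000341), and Vip was higher too (1.89 ± 0.19, adjusted p = 3.29e-05). Pdyn, which encodes dynorphin, was at 1.19, 3.77 and 2.89 RPKM in the ventral midbrain, against 11.4, 10.2 and 13.9 RPKM in the ventral hindbrain (-1.89 ± 0.31, adjusted p = 0.00181). Crh, the corticotropin releasing hormone, was lower as well (-1.49 ± 0.18, adjusted p = 0.000157).

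Of 41 transmitter receptor genes, 1 (Chrna6) was higher and 2 were lower, and of 33 potassium channel genes, 2 were higher and 1 was lower, where 1.18% of all tested genes were higher and 0.763% lower. Kcnk9, a two-pore channel, was at 24.3, 24.0 and 33.4 RPKM in the ventral midbrain, against 11.7, 2.96 and 4.57 RPKM in the ventral hindbrain (2.09 ± 0.37, adjusted p = 0.00361). Grm3, a glutamate receptor, was at 1.88, 1.19 and 1.32 RPKM in the ventral midbrain, against 8.13, 3.01 and 5.61 RPKM in the ventral hindbrain (-1.35 ± 0.24, adjusted p = 0.00332). Of 22 cadherin genes, Pcdh8 was the 1 call (1.07 ± 0.10, adjusted p = 2.85e-05, and 0.98 without midbrain replicate 6, under the size threshold).

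Genes of the largest difference that are on no list include Shisa3, at 21.2, 19.8 and 14.1 RPKM in the ventral midbrain, against 0.300, 0.576 and 0.267 RPKM in the ventral hindbrain (3.80 ± 0.30, adjusted p = 5.26e-06). Lamp5, a membrane protein of neurons, was at 3.33, 4.63 and 3.91 RPKM in the ventral midbrain, against 94.5, 23.4 and 104 RPKM in the ventral hindbrain (-3.67 ± 0.39, adjusted p = 5.84e-05). C1ql3, a secreted synaptic protein, was at 0.185, 0.305 and 0.240 RPKM in the ventral midbrain, against 11.9, 5.86 and 11.52 RPKM in the ventral hindbrain (-3.06 ± 0.39, adjusted p = 0.000277). Lamp5 and C1ql3 were lowest among the hindbrain libraries in replicate 5, the order also seen for Hoxa2.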
